A study of Mus musculus with 96 samples.

Results

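The 10 transcripts described here belong to the Nrf2 antioxidant response and the metallothioneins, and they were followed in mouse embryonic fibroblasts (MEFs) through the hours after serum. They were taken from the table by gene symbol, with earlier results of these data known, and are Nfe2l2, Keap1, Hmox1, Srxn1, Txnrd1, Nqo1, Gclc, Gclm, Mt1 and Mt2, all 10 of which are among the 15895 gene rows of the table. The cells were primary MEFs of the CF-1 strain from E13 embryos, a mixed culture with no engineered allele given in the labels. They were held in 0.5% FCS for 36 h, and serum was then raised to 20% at 0 h, so that starvation is shared by every library and no library of cells growing without starvation was analysed here. Cycle 1 supplied 63 libraries from -1 h to 38 h and Cycle 2 supplied 32 from -1 h to 27 h. A Cycle has 1 library for each hour it sampled, and some hours were sampled in 1 Cycle only. The starved group is the -1 h and 0 h libraries, 2 from each Cycle, and the Cycles shared 29 hours after serum. The labels do not say whether the libraries of a Cycle came from separate cultures or how many embryos were pooled, so the p-values below measure the spread between these libraries, which may be technical.

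Nrf2, the product of Nfe2l2, is a transcription factor that Keap1 holds in the cytoplasm and marks for degradation. Oxidants and electrophiles modify Keap1, after which Nrf2 collects in the nucleus, pairs with a small Maf protein and binds antioxidant response elements near genes for glutathione synthesis, thioredoxin reduction, quinone reduction and haem breakdown. Because this control acts on the protein, the level of Nfe2l2 RNA need not follow the activity of Nrf2. The metallothioneins Mt1 and Mt2 are small cysteine-rich proteins that bind zinc, copper and cadmium, and their transcription is driven mainly by the zinc sensor Mtf1 through metal response elements.

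The promoters of Srxn1, Mt1 and Mt2 are shown because Srxn1 had the largest rise of the 10 genes, because Mt1 and Mt2 had the largest falls, and because each holds several copies of the element its family is known for. Each line holds the 250 bases before the RefSeq start on GRCm38.p6, read 5′ to 3′ on the gene's strand, which is the plus strand for all 3. They lie at chr2:152105274-152105523 for Srxn1, chr8:94178839-94179088 for Mt1 and chr8:94172368-94172617 for Mt2. Capitals mark antioxidant response elements (TGACNNNGC or TGAGNNNGC) in Srxn1 and metal response elements (TGCACNC or TGCGCNC) in Mt1 and Mt2, on either strand.
Srxn1: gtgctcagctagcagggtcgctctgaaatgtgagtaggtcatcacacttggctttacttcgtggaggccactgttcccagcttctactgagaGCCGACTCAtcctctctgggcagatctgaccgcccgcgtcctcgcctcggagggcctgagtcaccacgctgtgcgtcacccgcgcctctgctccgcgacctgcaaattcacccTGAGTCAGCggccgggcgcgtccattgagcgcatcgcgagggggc
Mt1: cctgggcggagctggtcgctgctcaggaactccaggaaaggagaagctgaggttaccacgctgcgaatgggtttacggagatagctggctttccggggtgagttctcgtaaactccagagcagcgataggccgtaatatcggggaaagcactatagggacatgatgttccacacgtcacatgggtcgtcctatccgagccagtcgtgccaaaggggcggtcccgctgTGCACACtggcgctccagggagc
Mt2: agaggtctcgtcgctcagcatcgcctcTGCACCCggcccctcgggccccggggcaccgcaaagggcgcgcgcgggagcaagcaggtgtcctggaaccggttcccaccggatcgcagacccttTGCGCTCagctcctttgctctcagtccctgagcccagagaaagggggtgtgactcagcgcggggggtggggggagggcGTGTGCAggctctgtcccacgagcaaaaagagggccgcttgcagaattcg
Counted over these bases and the 50 that follow, with the start as position 0, Srxn1 had 3 antioxidant response elements, beginning at -158, -45 and 28. The one at -45 overlaps a copy of TGAGTCA, the AP-1 motif, and another copy of that motif begins at -102. Mt1 had 3 metal response elements, at -23, 2 and 20, of which the first is in the printed stretch. Mt2 had 4, at -223, -128, -50 and 4, and also 1 antioxidant response element at -79 that overlaps an AP-1 motif. For comparison, 27.8% of 32851 RefSeq promoters of this length held at least 1 antioxidant response element and 4.68% held 2 or more. The metal response element occurred in 25.7% and at least 2 times in 7.11%, and the AP-1 motif occurred in 5.2%. Of the 10 genes 8 had a promoter in the RefSeq table, Hmox1 and Gclc being the other two. Gclm, Nfe2l2 and 1 of the 3 Txnrd1 promoters held 1 antioxidant response element each, and none was matched in the windows of Keap1 and Nqo1. The metal response element was not confined to Mt1 and Mt2, since Gclm held 3, as many as Mt1, and Srxn1 held 1. These matches are letters in a window and were not tested for binding.

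Values are a normalized signal in which every library is scaled to the same total, and a fold is the value divided by the starved mean of its own Cycle. Reads on listed genes, recovered from the value of 1 read, ranged from 4352235 to 12551892 per library with a median of 9375098 (less surely in the -1 h library of Cycle 1 and the 18 h library of Cycle 2), and 1 read was worth 0.690 to 1.97 signal units, against a lowest value of 72.7 for any of the 10 genes in any library. The fibroblast markers were high throughout, with a sum over 8 markers of 465798 and 483436 in the starved libraries of Cycle 1 and 330800 and 350190 in those of Cycle 2, and of 160792 to 483436 over all 95 libraries. That sum went down with time, to medians of 215635 and 204948 from 9 to 14 h and of 176000 and 175829 from 21 to 27 h in Cycles 1 and 2. The 7 macrophage marker genes in the table, none of them at 0 in every library, summed to 1156 and 1231 in starved Cycle 1 and to 3449 and 3512 in starved Cycle 2. The 4 endothelial markers summed to 37.2 to 271.7 and the 4 epithelial markers to 33.1 to 598.5. In bulk RNA, fewer cells of a type and less RNA per cell cannot be told apart. The 24.5 h library of Cycle 1 stood farthest apart, differing from the libraries before and after it by 0.41 (log2, median over genes). It entered no main test because Cycle 2 has no such hour. It did enter the alternative comparison of the Cycles that added the hours sampled in Cycle 1 alone.

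In starved cells the metallothioneins had the highest mean per kilobase of transcript. On the signal per kilobase, the mean level ± SD over the 4 starved libraries was 1904 ± 901 for Mt2, 1858 ± 822 for Mt1, 924 ± 139 for Hmox1, 475 ± 102 for Txnrd1, 452 ± 54.0 for Nfe2l2, 188 ± 8.62 for Srxn1, 127 ± 8.51 for Keap1, 78.9 ± 8.08 for Gclc, 70.0 ± 23.0 for Nqo1 and 63.8 ± 7.52 for Gclm. Mt2 and Mt1 did not differ beyond their spread, and Mt1 overlapped Hmox1 in Cycle 1, at 1105 against 1108 in the 0 h library. Txnrd1 and Nfe2l2 did not differ beyond their spread, nor did Gclc, Nqo1 and Gclm among themselves. Within each of the 4 starved libraries Gclc was above Gclm, at 71.1 against 59.3, 73.0 against 57.3, 87.8 against 74.1 and 83.5 against 64.7. The wide spread of the metallothioneins lay between the Cycles. Starved Mt1 signal was 764 and 698 in Cycle 1 against 1505 and 1724 in Cycle 2, and starved Mt2 signal was 634 and 636 against 1349 and 1615. By its peak after serum, Hmox1 led the order at 20151 per kilobase in Cycle 1 and 7564 in Cycle 2, ahead of Srxn1 at 7871 in Cycle 1 and, in Cycle 2, of Mt2 at 5331.

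All 10 transcripts differed from the starved level after serum, with Hmox1, Srxn1 and Txnrd1 highest within 3 h, Nqo1 later, Gclm still raised after 20 h, and Mt1 and Mt2 low from 9 h on. Differences over the shared hours were tested with limma on log2(signal + 1), and all 10 genes passed the F test at an adjusted p under 0.05, as did 68.0% of all genes tested. Each window of hours was then compared with the 4 starved libraries. The fit counted the hours of a window as independent, although they are successive times of the same time courses. The window p-values therefore do not measure the spread between repeated time courses. From 1 to 3 h, 8 genes rose against 11.9% of all genes, and Keap1 fell against 35.0%. From 4 to 8 h the counts were 7 rises and 1 fall, against 20.0% and 37.4%. From 9 to 14 h they were 6 and 2, against 22.4% and 32.7%, and from 15 to 20 h 6 and 3, against 23.8% and 33.3%. From 21 to 27 h they were again 6 and 3, against 23.8% and 36.2%. With a limit of 2-fold added to the adjusted p, 6 genes rose and 1 fell from 1 to 3 h (5.11% and 11.4% of all genes), 6 and 0 from 4 to 8 h in limma (7.37% and 18.0%), 6 and 2 from 9 to 14 h (6.77% and 16.1%), 5 and 2 from 15 to 20 h (6.57% and 16.6%) and 5 and 2 from 21 to 27 h (6.41% and 18.5%). The median change over all genes was -0.26 in the first window and between -0.23 and -0.13 in the others, whereas that of the 10 genes was between 0.96 and 1.31. The split of all calls depended on scaling in the early windows. With TMM scaling, which raised the changes by 0.23 at 1 to 3 h and 0.16 at 4 to 8 h (log2, median over genes), rises made up 47.5% of calls in place of 25.3% in the first window and 46.7% in place of 34.8% in the second. No direction of the 10 genes turned with it.

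**Figure D1:**
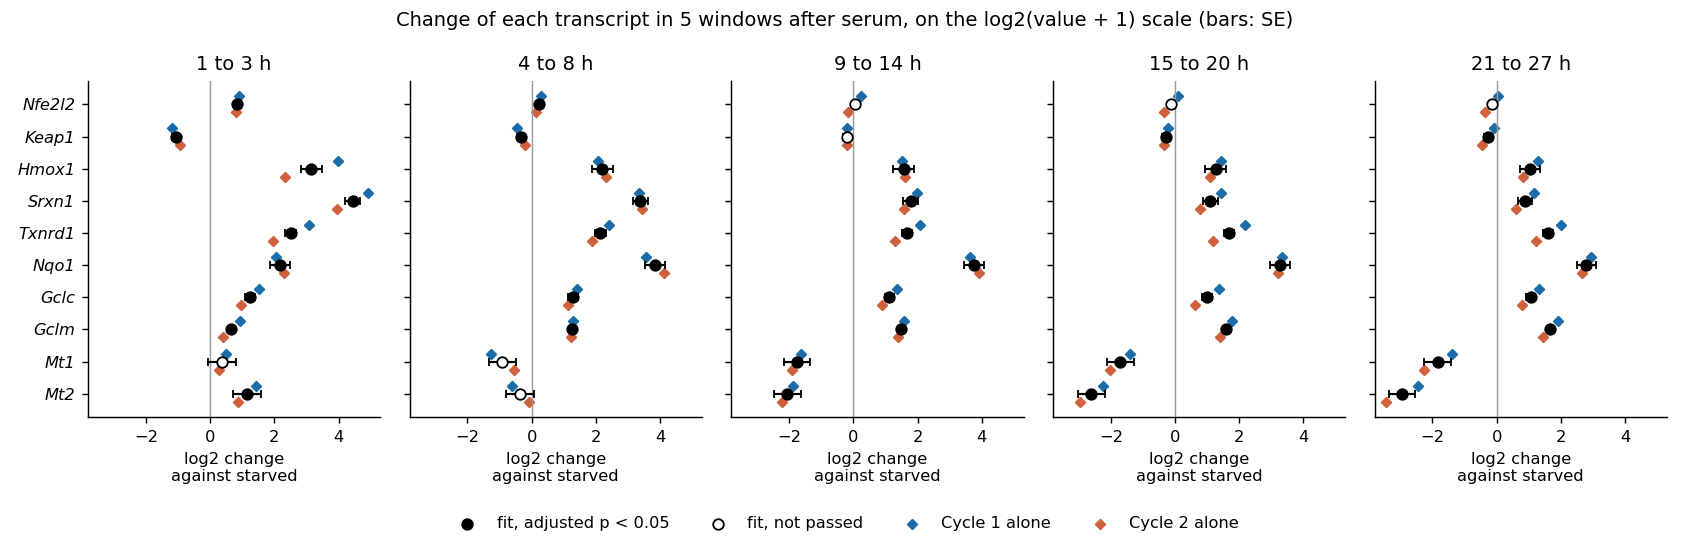
Change of each of the 10 transcripts (rows) in 5 windows of hours after serum (panels), as the log2 difference from the starved libraries on the log2(signal + 1) scale. Circles are the limma estimate from both Cycles with bars of 1 SE, filled where the adjusted p was under 0.05 and open where it was not, and diamonds are the change within each Cycle alone. Srxn1 and Hmox1 lie farthest right from 1 to 3 h at 4.44 and 3.16, Nqo1 from 4 to 8 h at 3.84, and Mt1 and Mt2 move to the left from 9 to 14 h on.

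Among the regulators, Nfe2l2 and Keap1 moved in opposite directions for a few hours. Nfe2l2 (chromosome 2, 75513570 to 75542698 on NCBIM37, minus strand) had starved signals of 1085 and 961 in Cycle 1 and of 1282 and 1150 in Cycle 2. At 2 h it stood at 2212 in Cycle 1 and 2516 in Cycle 2, the highest value of either Cycle and 2.16-fold and 2.07-fold the starved mean. The 10 libraries from 1 to 3 h lay between 1601 and 2516, above all 4 starved libraries. The rise was 0.85 ± 0.084 (SE) on the log2 scale from 1 to 3 h (limma, adjusted p = 3.42e-10) and 0.22 from 4 to 8 h (limma, adjusted p = 0.0228), where it did not pass without the starved -1 h library of Cycle 1 (adjusted p = 0.0612), without its 0 h library (0.159) or with Cycle 2 alone (0.357). The later windows did not pass, at 0.041, -0.13 and -0.16, although the last passed as a fall in edgeR (adjusted p = 0.0321), without the 0 h library of Cycle 1 (0.0267) and with Cycle 2 alone (0.0212), which also passed from 15 to 20 h (0.0238). From 21 to 27 h the change from the Cycle's own starved libraries was 0.031 in Cycle 1 and -0.35 in Cycle 2. The signals themselves overlapped, at 901 to 1114 in Cycle 1 and 897 to 1029 in Cycle 2, with medians of 1067 and 947.

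Keap1 (chromosome 9, 21034174 to 21043776, minus strand), the adaptor that brings Nrf2 to the Cul3 ubiquitin ligase, was the only one of the 10 to fall in the first window. Its starved signals were 612, 524, 581 and 550. The lowest value was 177 at 2 h in Cycle 1, 0.312 of the starved mean, and 240 at 3 h in Cycle 2, 0.424 of it. All 10 libraries from 1 to 3 h, at 177 to 423, lay below all starved libraries, and at 7 h the values were 492 and 603. The fall was -1.05 ± 0.12 on the log2 scale from 1 to 3 h (limma, adjusted p = 4.86e-09) and -0.33 from 4 to 8 h (limma, adjusted p = 0.0157). The small falls of -0.28 from 15 to 20 h and -0.27 from 21 to 27 h passed narrowly (limma, adjusted p = 0.0364 and 0.0358) and, like that from 4 to 8 h, no longer passed with TMM scaling (adjusted p = 0.0679, 0.11 and 0.165) or without the starved -1 h library of Cycle 1 (0.118, 0.119 and 0.0602). Over libraries, Nfe2l2 and Keap1 had r = -0.89 in Cycle 1 and -0.62 in Cycle 2, which is a description of points from successive hours.

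Hmox1, Srxn1 and Txnrd1 rose within the first hours, and their later changes were smaller but still passed as rises in every window up to 27 h. Hmox1 (chromosome 8, 77617490 to 77624495, plus strand) encodes heme oxygenase 1, which breaks haem down to biliverdin, iron and carbon monoxide. Its starved signals were 1290 and 1779 in Cycle 1 and 1336 and 1530 in Cycle 2. In Cycle 1 it was already at 12713 at 1 h and peaked at 32363 at 2 h, 21.1-fold the starved mean. In Cycle 2 it was at 2771 at 1 h and peaked at 12148 at 3 h, 8.48-fold. The values of the 2 Cycles from 1 to 3 h did not overlap. By 8 h they had come to 3892 and 5120, and from 9 to 14 h the medians were 4387 and 4277. The change was 3.16 ± 0.33 from 1 to 3 h (limma, adjusted p = 9.03e-10), 2.19 from 4 to 8 h, and 1.05 ± 0.31 from 21 to 27 h (limma, adjusted p = 0.0044), the last of which did not pass with the 0 h libraries alone as the baseline (adjusted p = 0.0867).

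Srxn1 (chromosome 2, 151931252 to 151937112, plus strand), the sulfiredoxin that reactivates over-oxidised peroxiredoxins, had the largest change of the 10 genes. Its starved signals lay between 514 and 564. It reached 22133 at 2.5 h in Cycle 1 and 13489 at 2.5 h in Cycle 2, which is 43.0-fold and 25.0-fold the starved means. Even the lowest library from 1 to 3 h, at 2532, was above every starved library. The rise was 4.44 ± 0.23 from 1 to 3 h (limma, adjusted p = 1.55e-16), 3.38 from 4 to 8 h and 1.79 from 9 to 14 h. Values then went down more slowly, with medians from 21 to 27 h of 1146 in Cycle 1 and 756 in Cycle 2, and the change there was 0.88 ± 0.22 (limma, adjusted p = 0.00116). With Cycle 2 alone the changes of 1.10 from 15 to 20 h and 0.88 became 0.78 and 0.59 and did not pass (adjusted p = 0.164 and 0.283).

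Txnrd1 (chromosome 10, 82296696 to 82360469, plus strand) encodes the cytosolic thioredoxin reductase, which uses NADPH to keep thioredoxin reduced. From starved signals of 1367 and 1448 in Cycle 1 and 2019 and 2077 in Cycle 2 it reached 16613 at 2.5 h, 11.8-fold, and 11861 at 3 h, 5.79-fold. Unlike Srxn1 it settled early, at medians of 5855 and 4978 from 9 to 14 h and of 5916 and 4676 from 21 to 27 h. No library from 1 h on overlapped the starved libraries. The change was 2.51 ± 0.16 from 1 to 3 h (limma, adjusted p = 2.41e-14), 2.14 from 4 to 8 h, and between 1.61 and 1.68 in the 3 later windows. Txnrd1 and Keap1 are among the 3291 genes whose deposited values are averages over several transcripts, so that a change confined to 1 transcript would be diluted.

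**Figure D2:**
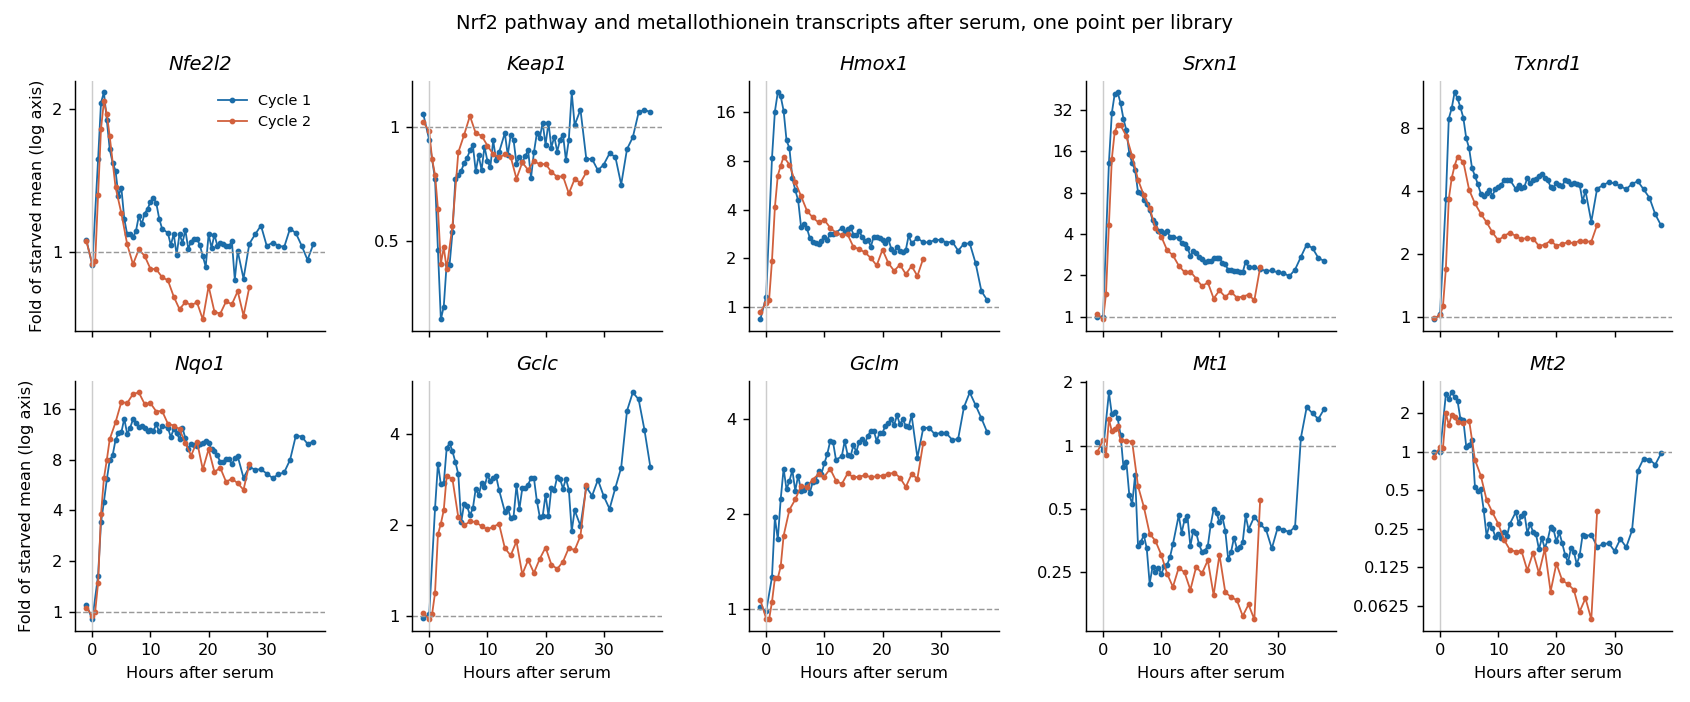
Signal of the 10 transcripts in each library as a fold of the starved mean of the same Cycle (log axis, dashed line at 1) against hours after serum, Cycle 1 in blue and Cycle 2 in orange. Hmox1, Srxn1 and Txnrd1 peak at 2 to 3 h. Nqo1 is highest at 5.5 h in Cycle 1, with 13.9-fold at 7 h, and at 8 h in Cycle 2. Keap1 has its lowest value at 2 to 3 h, and Mt1 and Mt2 fall to 0.149 and 0.049 of the starved mean at 26 h in Cycle 2.

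Nqo1, Gclc and Gclm rose later or stayed up. Nqo1 (chromosome 8, 109912125 to 109927106, minus strand), the quinone reductase often used as a readout of Nrf2, had low starved signals of 152 and 124 in Cycle 1 and 83.9 and 75.0 in Cycle 2. It climbed through the first hours, to 226 and 118 at 1 h and 1096 and 840 at 3 h. It was highest at 5.5 h in Cycle 1 with 1934, 14.0-fold, and at 8 h in Cycle 2 with 1593, 20.0-fold. The hour of the Cycle 1 peak rests on 1 library, which differed from its neighbours by 0.23 (log2, median over genes). In that Cycle Nqo1 was at 1600 at 5 h, 1569 at 6 h and 1912 at 7 h. The change was 2.17 ± 0.31 from 1 to 3 h (limma, adjusted p = 6.05e-07), 3.84 ± 0.31 from 4 to 8 h (limma, adjusted p = 2.93e-12), 3.77 from 9 to 14 h and 2.80 from 21 to 27 h. Its later values were lower in Cycle 2, where the median from 21 to 27 h was 489 against 1068 in Cycle 1.

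Gclc and Gclm encode the catalytic and modifier subunits of glutamate-cysteine ligase, which makes the rate-limiting step of glutathione synthesis. Gclc (chromosome 9, 77602342 to 77642292, plus strand) had starved signals of 243 and 250 in Cycle 1 and 300.5 and 286 in Cycle 2. It was at 924 at 3.5 h in Cycle 1 and 855 at 3 h in Cycle 2, and its change stayed between 1.00 and 1.28 in all 5 windows (limma, adjusted p of 1.76e-06 or less in each). Gclm (chromosome 3, 121948475 to 121972902, plus strand) started from 287 and 277 in Cycle 1 and 359 and 313 in Cycle 2. Its change in the fit of both Cycles grew from window to window. It was 0.66 ± 0.10 from 1 to 3 h (limma, adjusted p = 2.01e-06), 1.26 from 4 to 8 h, 1.49 from 9 to 14 h, 1.59 from 15 to 20 h and 1.67 ± 0.10 from 21 to 27 h (limma, adjusted p = 1.8e-15). In Cycle 1 alone the change was 1.59, 1.79 and 1.90 from 9 to 14 h, 15 to 20 h and 21 to 27 h. In Cycle 2 it was 1.40, 1.40 and 1.44 in these windows. The last of these includes the 27 h library, where Gclm was at 1128 against 819 to 908 from 21 to 26 h. From 4 h on, no library of either subunit overlapped the starved libraries. The Gclc change was 1.42 in Cycle 1 and 1.13 in Cycle 2 from 4 to 8 h, and 1.37 and 0.63 from 15 to 20 h. In the first window Gclc changed by more than Gclm in both Cycles, at 1.52 and 0.97 against 0.93 and 0.39. Their time patterns were not tested against each other.

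The metallothioneins moved in the other direction. Mt1 and Mt2 lie side by side on chromosome 8 (Mt2 at 96696518 to 96697467 and Mt1 at 96702989 to 96704225, both on the plus strand, with 5521 bases between them). Both were highest in the first 2 h. Mt2 was at 1845 at 2 h in Cycle 1, 2.90-fold the starved mean, and at 2964 at 1 h in Cycle 2, 2.00-fold. Mt1 was at 1309 and 2155 at 1 h, 1.79-fold and 1.33-fold. The early rise of Mt2 was 1.15 ± 0.43 (limma, adjusted p = 0.0283) and did not pass without the -1 h library of Cycle 1 (adjusted p = 0.12), without its 0 h library (0.116) or against the 0 h libraries alone (0.153). It passed with the Cycle as a replicate block (limma, adjusted p = 0.0019) and did not pass with Cycle 2 alone (0.192). The early change of Mt1, at 0.38, did not pass (limma, adjusted p = 0.496).

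After 5 h both signals were lower. Mt1 came to 161 at 8 h in Cycle 1, 0.221 of the starved mean, while in Cycle 2 it was at 617 at 8 h and reached its lowest value, 241, at 26 h. Mt2 came to 139 at 8 h in Cycle 1 and 84.1 at 23.5 h, 0.132 of the starved mean, and in Cycle 2 to 72.7 at 26 h, 0.049 of it. From 9 h to 26 h every shared library of either gene lay below all 4 starved libraries. The fibroblast marker sum was lower in the same hours, and its part was not tested. For Mt1 the fall was -1.76 ± 0.42 from 9 to 14 h (limma, adjusted p = 0.000635) and -1.84 from 21 to 27 h (limma, adjusted p = 0.000278). For Mt2 it was -2.05 ± 0.42 from 9 to 14 h (limma, adjusted p = 0.000112), -2.61 from 15 to 20 h and -2.95 from 21 to 27 h (limma, adjusted p = 2.87e-07). From 4 to 8 h the Mt1 change of -0.92 did not pass in the unblocked test (limma, adjusted p = 0.0673) and passed with the Cycle as a replicate block (adjusted p = 0.00357), and the Mt2 change of -0.36 did not pass either way (0.495 and 0.312 with the block). Over libraries Mt1 and Mt2 had r = 0.85 in Cycle 1 and 0.98 in Cycle 2. They are close paralogs, and how reads shared between them were assigned is not given in the sources used here.

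Late in each Cycle the metallothioneins were high again. In Cycle 1 the 6 libraries from 28 to 33 h held Mt1 at 237 to 301 and Mt2 at 106 to 154, and the 5 libraries from 34 to 38 h held Mt1 at 797 to 1114 and Mt2 at 453 to 618. The medians differed 3.57-fold for Mt1, from 292 to 1041, and 4.53-fold for Mt2, from 121 to 550. Mt1 was then above its starved mean of 731, and Mt2 was below its starved mean of 635. In Cycle 2 a step of the same kind was seen in the last library alone. Mt1 was at 893 at 27 h against 241 to 325 from 21 to 26 h, and Mt2 at 507 against 72.7 to 147. At 27 h Cycle 1 held 308 and 115. Among the 9112 genes with a mean signal over 100, the step of Mt2 from 26 to 27 h in Cycle 2 ranked 1 from the top at 6.98-fold and that of Mt1 ranked 4 at 3.70-fold. The step from 33 to 34 h in Cycle 1 ranked 9 for Mt2 at 2.94-fold and 16 for Mt1 at 2.64-fold. These steps were picked because both genes change there, so high ranks follow from the choice and are a description only. In the same steps of Cycle 2 and Cycle 1, Gclc ranked 151 and 251, Srxn1 52 and 1329, and Hmox1 536 and 3009.

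Slc30a1, the zinc exporter of the plasma membrane and a known Mtf1 target, was chosen for mention after its values were seen. It was at 514 at 27 h in Cycle 2 against 155 at 26 h, a step of 3.31-fold that ranked 7 from the top. In Cycle 1 it was at 119 at 32 h and 275 at 33 h, and its highest late value was 472 at 34 h, with 225 an hour later. Of the Nrf2 targets, Gclc and Gclm had their highest values of Cycle 1 in these hours. Gclc was at 1181 at 34 h and 1359 at 35 h against 766 at 33 h, and at 797 at 27 h against 541 at 26 h in Cycle 2. Gclm was at 1371 at 35 h against 976 at 33 h. In Cycle 2 its highest value was 1128 at 27 h, against 870 at 26 h. Nqo1 and Srxn1 had medians of 1411 and 1404 from 34 to 38 h against 919 and 1094 from 28 to 33 h. Hmox1 went the other way in Cycle 1, from 3794 at 35 h to 1694 at 38 h, and Txnrd1 from 6249 at 34 h to 3843 at 38 h. These hours have 1 library in Cycle 1 and none in Cycle 2, and the 27 h library of Cycle 2 has no later neighbour, so no test was made. Without the 27 h libraries Mt1 and Mt2 still passed as falls from 21 to 26 h.

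**Figure D3:**
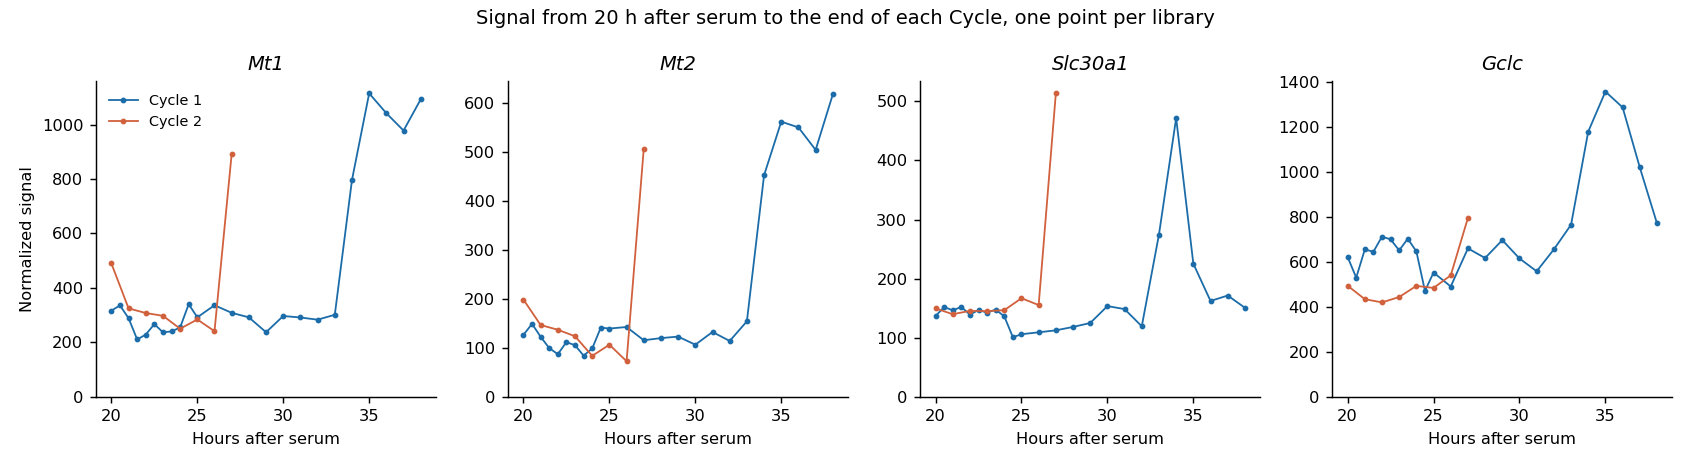
Normalized signal of Mt1, Mt2, the zinc exporter Slc30a1 and Gclc against hours after serum from 20 h to the end of each Cycle, with 1 point per library and the vertical axis from 0. Mt1 and Mt2 are low until 33 h in Cycle 1 and until 26 h in Cycle 2, and in the last library of Cycle 2 they stand at 893 and 507.

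No difference between the Cycles in the size of a change passed the test, though some were large. The change of each window was set against its counterpart in the other Cycle with the hours of a window as samples, which are successive times of 1 culture series and not true replicates. Hours were matched by the time since serum, while the study allowed for an offset between the Cycles, and a difference in size cannot be told apart from one in timing. None of the 50 pairs of gene and window passed in limma, 9 had an unadjusted p under 0.05, and 3 to 5 passed with a pseudocount of 10, a minimum mean of 10 or the hours sampled in Cycle 1 alone. Over all genes 1.33% passed in the first window and 10.2% to 18.7% in the others. The difference was largest for Hmox1 from 1 to 3 h, with a log2 change of 3.98 in Cycle 1 and 2.34 in Cycle 2, a difference of 1.64 (limma, adjusted p = 0.0614, and between 0.0267 and 0.37 over the alternatives). Txnrd1 in the same window changed by 3.07 and 1.95 (limma, adjusted p = 0.199). From 15 to 20 h Gclc changed by 1.37 and 0.63 (limma, adjusted p = 0.0533, and 0.0374 to 0.0447 in 4 alternatives) and Nfe2l2 by 0.095 and -0.36 (limma, adjusted p = 0.0565, and 0.0456 to 0.0486 in 3 alternatives). The starved levels of Cycle 2 were higher for Nfe2l2, Txnrd1, Gclc, Gclm and the metallothioneins and lower for Nqo1, and each change is counted from them. The macrophage marker sum was higher in Cycle 2 throughout, with medians of 4051 against 1465 from 1 to 3 h and 2396 against 692 from 21 to 27 h. The part of the starved levels and of the marker sum in these differences was not tested.

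The further genes of the pathway were counted over fixed lists. Over all genes 11.9% to 23.8% rose and 32.7% to 37.4% fell in a window, as given above for each. Of 9 partners and regulators of Nrf2, 5 rose and 2 fell from 1 to 3 h, against 11.9% and 35.0% of all genes. Mafk and Maff, small Maf proteins that pair with Nrf2, rose by 1.82 and 2.14 (limma, adjusted p = 6.35e-10 and 6.89e-09), and Sqstm1, the autophagy receptor p62 that binds Keap1, rose by 1.51 (limma, adjusted p = 1.1e-12). The baseline of the Maf genes was already uneven. Maff was at 88.7 at -1 h and 431 at 0 h in Cycle 1 and at 326 and 527 in Cycle 2, and it was highest at 2078 at 1 h and 1207 at 5 h. Its change from 1 to 3 h differed between the Cycles, at 2.84 and 1.44 (limma, adjusted p = 0.0467). Sqstm1 went from 3816, 4393, 3751 and 4866 in starved cells to 14330 and 12980 at 2 h. From 9 h on, 3 of the 9 rose and 4 fell in each window, which is near the shares of all genes, and 8 of 9 passed the F test against 68.0% of all genes. With the Cycle as a replicate block 4 rose from 15 to 20 h.

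Of 18 further Nrf2 targets, 8 rose and none fell in limma from 1 to 3 h, 10 rose and 1 fell from 4 to 8 h, 12 and 2 from 9 to 14 h, 13 and 2 from 15 to 20 h, and 11 and 1 from 21 to 27 h. All genes rose in 11.9%, 20.0%, 22.4%, 23.8% and 23.8% of cases in these windows and fell in 35.0%, 37.4%, 32.7%, 33.3% and 36.2%. With the Cycle as a replicate block the single fall from 4 to 8 h became 2, and the rises became 9 from 1 to 3 h, 11 from 4 to 8 h and 14 from 21 to 27 h. The list median was highest from 9 to 14 h at 0.76, against -0.14 over all genes. Gsta4, a glutathione transferase that acts on lipid aldehydes, rose by 2.16 from 9 to 14 h (limma, adjusted p = 5.47e-06), from starved signals of 570 and 501 in Cycle 1 and 276 and 268 in Cycle 2 to peaks of 2704 at 14 h and 1483 at 10 h. Ugdh, which makes the UDP-glucuronate used in conjugation, rose by 1.58 from 4 to 8 h (limma, adjusted p = 2.06e-10), with 2.02 in Cycle 1 and 1.14 in Cycle 2, a difference that passed (limma, adjusted p = 0.0201). Gstm1, another glutathione transferase, fell by 1.56 from 21 to 27 h (limma, adjusted p = 1.76e-06), and its lowest values up to 27 h, 173 and 191, were both at 26 h. The 26 h library of Cycle 1 differed from its neighbours by 0.23 (log2, median over genes), and Gstm1 was at 294 and 281 in those neighbours. Its fall was larger in Cycle 1, at -2.10 against -1.01 (limma, adjusted p = 0.000926).

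Of 9 genes of zinc handling 8 were in the table. From 4 to 8 h 4 rose and 1 fell, against 20.0% and 37.4% of all genes. In the other windows 1 or 2 rose and 1 to 3 fell, near or below the shares of all genes, and from 9 to 14 h 2 in place of 1 fell with the replicate block. Mtf1, the zinc sensor, and Slc30a1, both named after their values were seen, passed in no window. The zinc importers Slc39a14 and Slc39a6 each rose by 0.59 from 4 to 8 h (limma, adjusted p = 0.00777 and 3.2e-08). The rise of Slc39a14 was 1.09 in Cycle 1 and 0.089 in Cycle 2, a difference that passed (limma, adjusted p = 0.0367), and it did not pass with Cycle 2 alone (adjusted p = 0.653). Mt3 rose by 1.10 in the same window (limma, adjusted p = 0.0161), at signals of at most 19.0 in any library up to 27 h, and the change was 0.068 in Cycle 1 and 2.13 in Cycle 2. Without Cycle 2 it did not pass (adjusted p = 0.921).

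Of 15 antioxidant enzymes outside the 10 genes, 1 rose and 2 fell from 1 to 3 h (all genes 11.9% and 35.0%), 4 and 6 from 4 to 8 h (20.0% and 37.4%), 4 and 1 from 9 to 14 h (22.4% and 32.7%), 5 and 1 from 15 to 20 h (23.8% and 33.3%), and 8 and 3 from 21 to 27 h (23.8% and 36.2%). With the replicate block 5 rose and 3 fell from 9 to 14 h, 6 and 3 from 15 to 20 h, and 8 and 4 from 21 to 27 h. Glrx, the cytosolic glutaredoxin, rose by 2.43 from 4 to 8 h (limma, adjusted p = 5.69e-16), from starved signals of 201, 144, 271 and 294 to 1466 at 7 h in Cycle 1 and 1409 at 6 h in Cycle 2. Prdx6 rose by 1.17 from 15 to 20 h (limma, adjusted p = 3.96e-06), with 1.75 in Cycle 1 and 0.59 in Cycle 2, a difference that passed (limma, adjusted p = 2.23e-05). Gpx3, the secreted glutathione peroxidase, fell by 1.90 from 21 to 27 h (limma, adjusted p = 1.09e-06).

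**Figure D4:**
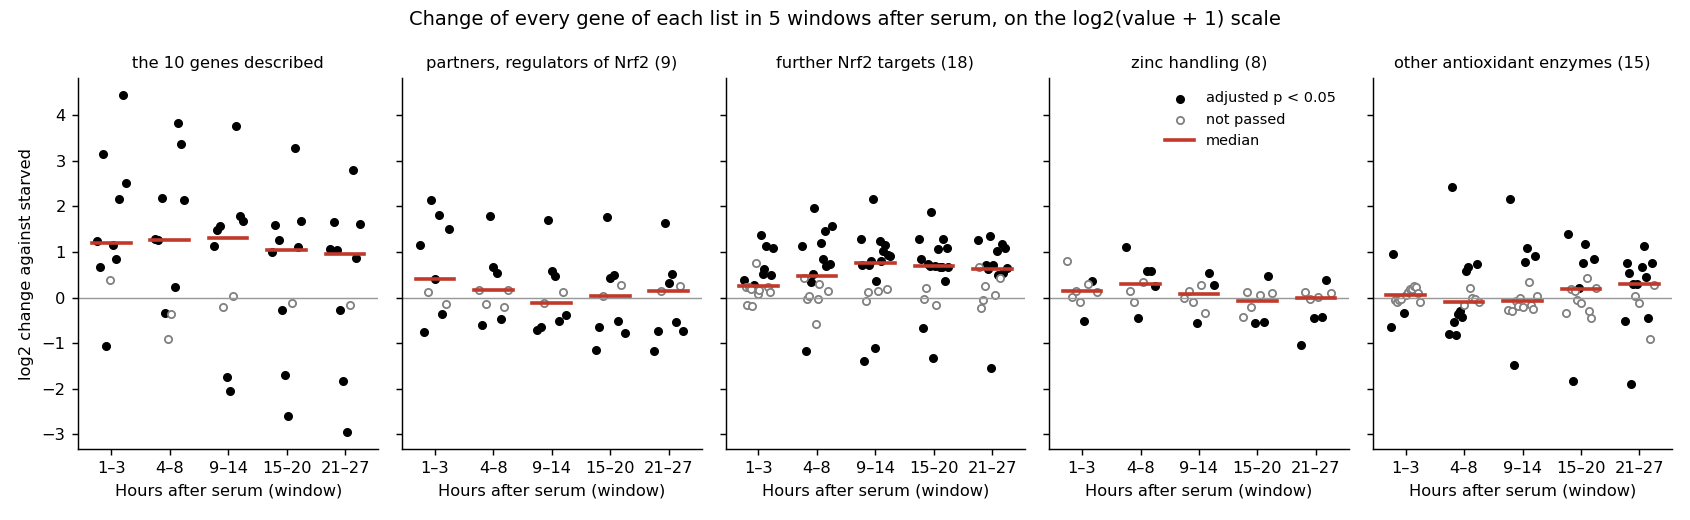
Log2 change against the starved libraries, on the log2(signal + 1) scale, of every gene of the 5 lists (panels) in 5 windows of hours after serum. Each point is 1 gene, filled where the limma adjusted p was under 0.05, and the red bar is the median of the list. The points of the 10 genes spread from -2.95 to 4.44, and the median of the further Nrf2 targets lies between 0.26 and 0.76.

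The genes whose time pattern was most like that of each transcript were found by Pearson's r of log2(signal + 1) over the 63 libraries of Cycle 1 and the 32 of Cycle 2, among 9110 genes, those 9112 with a mean over 100 less the 2 rows that share a symbol. Neighbouring hours share much of their signal, so r is given as a description. Hmox1 had Srxn1 as its nearest gene (r = 0.92 and 0.94), and Txnrd1 had Ctdp1 (0.91 and 0.92). Gdnf was near both Srxn1 (0.97 and 0.93) and Nfe2l2 (0.89 and 0.94). Nqo1 had Ptprn (0.92 and 0.93), Dusp9 (0.89 and 0.94) and Gsta4 (0.88 and 0.95). Keap1 had Elp3 (0.93 and 0.94), and Gclm had Cck (0.91 and 0.96). Mt1 had Lgmn (0.89 and 0.95), and Mt2 had Gla (0.94 and 0.93) and Sqstm1 (0.94 and 0.93). Gclc had Mfap3l, at the lower values of 0.75 and 0.82.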

How the data were processed

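Poly(A) RNA of MEFs was sequenced as single-end 50-base reads from a stranded library. Per the labels, the authors used CASAVA, aligned the reads to mm9 with STAR and counted them with HOMER. The deposited unit is a normalized signal, which the authors made by scaling each library to the same total, with versions not given in the sources used here. Of 96 columns 1 was not used, because its name matched no single library. Low values fell on whole reads in 94.2% to 96.2% of cases per library (tolerance 0.1 read).

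The test was that of limma 3.58.1 (R 4.3.3), with log2(value + 1) as response, over 62 libraries (4 starved and 29 shared hours in both Cycles), without a filter, with trend and robust off, and adjusted by Benjamini-Hochberg over all 15895 genes at 0.05. A fold change on this scale understates that of low genes. Windows were contrasts of hour means, and differences between Cycles were an interaction of window and Cycle. The labels' Cycle number marks a shared time course and pairs the libraries: deviations from the hour means correlated between hours of a Cycle over 406 pairs of hours with a median r of 0.44, and 394 were over 0.1. Alternatives were pseudocounts, a filter on low means, TMM scaling, the 0 h baseline, the Cycle as replicate block, trend and robust fits, edgeR 4.0.16 on recovered reads, a 2-fold limit and leaving out libraries or a Cycle. Leaving out the 27 h and the 26 h libraries was chosen after seeing the data. The fits were also run on simulated data in which the libraries were drawn independently. That run cannot show how the tests behave with the correlation within a Cycle.

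The 10 genes, the lists and the tests were chosen with earlier results of these data known. By rule the text names all 10 genes, for each list the 3 genes with the largest passing change of the same direction in both Cycles, and the 3 genes most alike in pattern for each of the 10, of which some are given and 1 is not reported here. Gene positions are from GENCODE vM1 on NCBIM37 (mm9) and promoters from RefSeq. Python 3.11.15 was used for tables and figures.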

Additional observations from a re-analysis of the deposited data

Results flagged for a closer look

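Srxn1 in the starved -1 h library of Cycle 2, at 563.8, lay farther from the other 3 starved libraries (514 to 516) than Dixon's 95% limit for 4 values allows. Of 10 starved groups tested this was the only one, and chance gives about 1 in 20. The distance is small beside the signals after serum, which were at least 2532 in every shared library from 1 to 3 h.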

How the results depend on the processing

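Of 50 pairs of gene and window, 38 kept their direction and their side of the threshold in all 16 alternatives. All 10 genes passed the F test in each alternative. The number of pairs that passed was 43, and ranged from 38 with the 0 h baseline to 44 with the replicate block, which changed the call of Mt1 from 4 to 8 h and no other of the 10 genes, and 35 with a 2-fold limit added. Leaving out 1 starved library gave 38 to 43, and leaving out a Cycle 39 and 41. Leaving the 2-fold limit aside, the calls lost in some alternative were Nfe2l2 from 4 to 8 h, Keap1 after 3 h, Srxn1 after 14 h, Hmox1 from 21 to 27 h and Mt2 from 1 to 3 h. Nfe2l2 turned sign from 9 to 14 h (0.041) to -0.030 without starved replicate 2. Leaving out a Cycle moved it between -0.15 and 0.23 from 9 to 14 h, between -0.36 and 0.095 from 15 to 20 h, and between -0.35 and 0.031 from 21 to 27 h, with the lower value that of Cycle 2 alone. The cause was not tested. The number of pairs that differed between Cycles was 0, and 3 with a pseudocount of 10, 3 with means of at least 10, 5 with the hours that Cycle 1 alone sampled added and 1 without the 27 h libraries. Leaving out 1 starved library left it at 0. Over all genes, TMM scaling gave 3181 rises and 3517 falls from 1 to 3 h in place of 1884 and 5558. In the limma fit, 9 genes had a change above 1 in size in at least 1 window, and 8 with the 0 h baseline and without Cycle 1.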
